A study of Homo sapiens with 2 samples.

Results

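Epithelial cells with high KRT17, C15orf48, ITGB6, RAMP1 and ITGA2 were examined within 1 culture differentiated to SANLPC, cells meant to resemble the pacemaker of the sinoatrial node, which sets the heartbeat. The culture was grown from HES2, an embryonic stem cell line from human. The 2 libraries of the series, 1 of polyadenylated RNA and 1 of barcode tags on an antibody against human CD34, came from the same sorted live single cells, a design called CITE-seq. There was 1 culture with no replicate and no second treatment or time. Cells of 1 culture are not replicates, so no comparison was tested. Ranges given after values are exact 95% intervals; they describe counting error alone.

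The cells were chosen in 2 steps. Of 14829 barcodes, all distinct, 11211 had at least 1000 genes, at most 25% mitochondrial unique molecular identifiers (UMIs) and at most 35000 RNA UMIs. Limits of 1000 CPM (the counts-per-million scale, a share of all RNA UMIs) on TNNT2, which encodes cardiac troponin T, and on COL1A1, a fibrillar collagen gene, left 5246 and then 4465 cells. Of these, 4046 carried 5 or more UMIs of VTCN1, GATA3, CLDN4 and WNT6 together and were called epithelial-like. The 607 cells with the highest 15% of the score, the mean of the 5 genes as log1p counts per 10000, form the population described here, called KRT17/ITGB6 cells below. They were 5.41% of the filtered barcodes, and the comparison is with the other 3439 epithelial-like cells. The score is continuous, and 371 epithelial-like cells lay within 10% of the limit of 0.913, 169 inside and 202 outside. The 20 cells just inside averaged 3.6 KRT17 and 8.75 RAMP1 UMIs, and the 20 just outside averaged 6.35 and 6.85.

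Depth was alike on both sides. The KRT17/ITGB6 cells had a median of 17833 RNA UMIs and 4800 genes and a median mitochondrial share of 5.17%, against 17404 UMIs, 4747 genes and 5.97% in the other epithelial-like cells. Doublet calls, made on the RNA of 12119 barcodes, marked 8 of the 607 cells (1.32%) and 77 of the 3439 (2.24%). As outside references, 781 cells over the COL1A1 limit and 5965 cells over the TNNT2 limit were kept, with median depths of 18298 and 16100 UMIs.

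Keratins form the intermediate filaments of epithelial cells. KRT17 is a keratin of basal and appendage epithelium that is known to appear in wounded skin. ITGB6 encodes an integrin chain that pairs with the product of ITGAV and, in epithelia, binds latent TGF-beta and helps release it. ITGA2 encodes a collagen-binding chain that pairs with the product of ITGB1. RAMP1 encodes a membrane partner of the calcitonin receptor-like receptor, which it turns into a receptor for the neuropeptide CGRP. C15orf48 encodes a small mitochondrial protein that can take the place of NDUFA4 in cytochrome c oxidase. VTCN1, GATA3 and WNT6 are genes of amnion and surface ectoderm, and CLDN4 encodes a tight junction protein.

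The 250 bases before the start site are shown for the score genes present in the RefSeq promoter table (GRCh38.p14) and for ANKRD1, a gene the score does not use that held the most motif matches among the genes of the highest ratios. KRT17 and RAMP1 are named only. Capitals mark matches to the motifs searched, on either strand. C15orf48 is on chr15:45430360-45430609 (plus strand), ITGB6 on chr2:160200273-160200522 (minus strand), ITGA2 on chr5:52989102-52989351 (plus strand) and ANKRD1 on chr10:90921088-90921337 (minus strand).
C15orf48: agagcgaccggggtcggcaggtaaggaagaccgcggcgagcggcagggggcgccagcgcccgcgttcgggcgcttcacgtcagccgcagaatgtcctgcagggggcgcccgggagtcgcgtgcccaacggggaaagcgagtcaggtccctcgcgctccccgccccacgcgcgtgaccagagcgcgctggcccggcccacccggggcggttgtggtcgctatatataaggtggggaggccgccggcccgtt
ITGB6: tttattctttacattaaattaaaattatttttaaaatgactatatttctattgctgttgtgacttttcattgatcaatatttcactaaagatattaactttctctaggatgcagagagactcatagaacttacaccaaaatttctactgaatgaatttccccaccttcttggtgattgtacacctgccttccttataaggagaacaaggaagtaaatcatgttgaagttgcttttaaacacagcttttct
ITGA2: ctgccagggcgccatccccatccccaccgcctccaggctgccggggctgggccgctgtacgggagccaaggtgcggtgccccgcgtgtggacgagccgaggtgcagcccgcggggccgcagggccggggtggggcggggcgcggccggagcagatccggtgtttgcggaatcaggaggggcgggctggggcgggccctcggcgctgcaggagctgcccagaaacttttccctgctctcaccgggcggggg
ANKRD1: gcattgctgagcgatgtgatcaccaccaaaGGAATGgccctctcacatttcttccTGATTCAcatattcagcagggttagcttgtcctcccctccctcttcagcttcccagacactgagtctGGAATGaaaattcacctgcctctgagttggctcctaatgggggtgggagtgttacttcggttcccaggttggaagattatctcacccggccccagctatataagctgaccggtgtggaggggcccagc

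The ANKRD1 window held an AP-1 motif (TGANTCA) that begins 195 bases before the start and TEAD motifs (GGAATG) at 220 and 128 bases. Of all 35116 windows of this length, 6.57% held the AP-1 motif and 11.9% the TEAD motif. None of the 3 score gene windows held either. Of 12 windows for 11 of the 15 genes of highest ratio, 2 held the AP-1 motif (TUBB3 and ANKRD1) and 2 the TEAD motif (ANKRD1 and PARP14). The GRHL motif (AACCGGTT, in 0.117% of all windows), the NF-kappaB motif (1.73%) and the SMAD motif (GTCTAGAC, 0.182%) were in none of these 15 windows. A match describes these letters only.

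The score genes describe the choice of cells and are given without further reading. KRT17 (ENSG00000128422, chromosome 17, 41619442 to 41624575) had 567 CPM (553 to 581) in KRT17/ITGB6 cells and 49.99 CPM (48.2 to 51.8) in the other epithelial-like cells. RAMP1 (chromosome 2, 237858880 to 237912106) had 543 and 121 CPM, and C15orf48 (chromosome 15, 45430610 to 45433340) had 122 and 21.4 CPM. ITGB6 (chromosome 2, 160099671 to 160200272) was common to both, at 594 and 313 CPM. ITGA2 (chromosome 5, 52989352 to 53094779) was the scarcest, at 44.9 and 7.88 CPM.

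Few cells showed all 5 genes at once. After each cell was thinned to 5000 UMIs, which left out 5 and 63 shallower cells, 3 or more of the 5 genes were found in most KRT17/ITGB6 cells: exactly 3 in 50%, 4 in 21.9% and 5 in 1.16%. In the other epithelial-like cells the same shares were 8.12%, 0.504% and 0.0296%. The score that chose the cells is the mean of these 5 genes. Higher shares of them in KRT17/ITGB6 cells than in other epithelial-like cells, here and in the rest of this paragraph, therefore come with the choice. They are given as a description only. A KRT17 UMI was found in 66.6% of KRT17/ITGB6 cells (62.7 to 70.4%), against 14.8% of other epithelial-like cells (13.6 to 16.1%), and in 83.9% and 30.04% without thinning. In TNNT2-high cells, which should lack it, the thinned share was 2.79%. ITGB6 was found in 90.4% and 73.8%, against 9.01% of TNNT2-high cells, and ITGA2 in 13.8% and 3.20%, against 0.775%. RAMP1, at 85.9% and 34.95%, was also found in 23.9% of TNNT2-high cells.

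The genes varied together only weakly across cells. Over 3978 thinned epithelial-like cells, Spearman's rho between pairs of score genes lay between 0.0599 (ITGB6 and ITGA2) and 0.218 (KRT17 and RAMP1). These values come from sparse counts, with each cell thinned to the same 5000 UMIs. When 4 of the genes chose the 15% of cells, 70.8% to 93.2% of the chosen were KRT17/ITGB6 cells. The gene left out differed between the sides. KRT17 then had 284 CPM in the chosen and 102 CPM in the other cells (2.78-fold, 2.66 to 2.90). C15orf48 was 2.86-fold higher (2.64 to 3.11), RAMP1 2.76-fold (2.66 to 2.86), ITGA2 3.85-fold (3.38 to 4.38) and ITGB6 1.55-fold (1.51 to 1.60). When cells were chosen on one random part of their UMIs and measured in the rest, KRT17 was 9.12-fold and ITGB6 1.747-fold higher in the chosen cells. These ratios come from counts that the choice of cells did not use. In the split of UMIs the cells were still chosen on KRT17 and ITGB6, so higher values there come with the choice. The score genes were also named with earlier results of these data known. The ratios are therefore a description and not independent support.

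**Figure D1:**
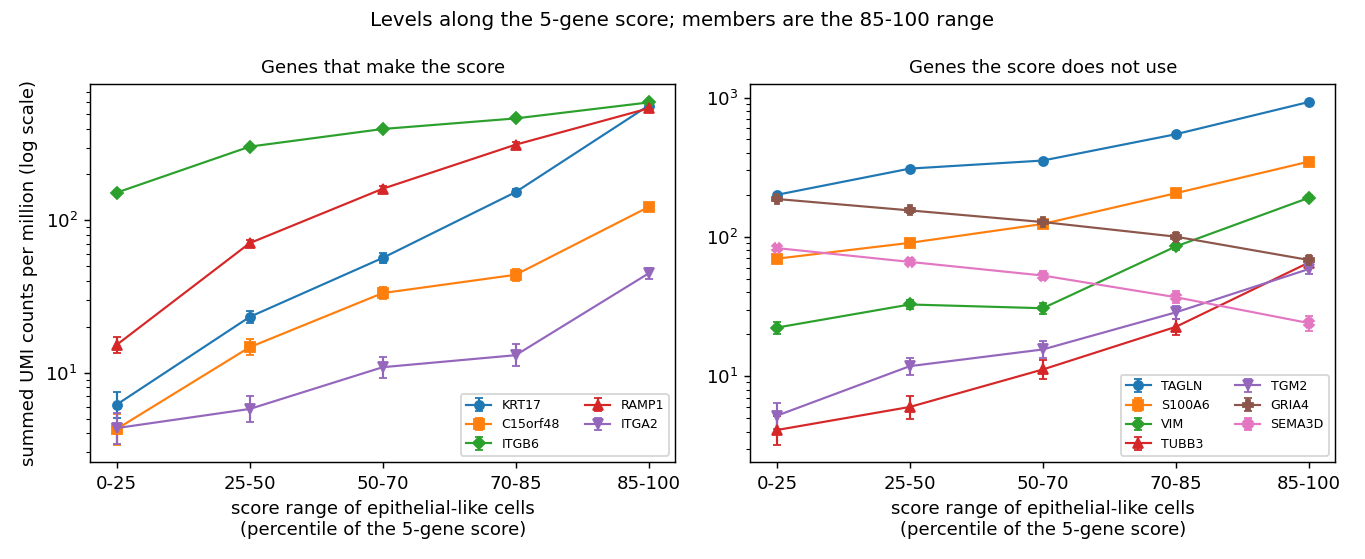
Summed UMI counts in CPM (log scale) of the 5 score genes (left) and of 7 genes that the score does not use (right) in 5 ranges of the score, from the lowest 25% of epithelial-like cells to the highest 15%. Bars are exact 95% intervals for counting error; VIM goes from 22.3 CPM in the lowest range to 190 CPM in the highest, and GRIA4 from 187 to 68.2 CPM.

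Along the score the levels changed in unequal steps. The genes given here are among those of highest or lowest ratio in the top range, so a change toward that range follows from their choice. TAGLN, which encodes the actin-binding protein transgelin, had 200, 309, 353, 545 and 928 CPM in the 5 ranges from lowest to highest score. VIM, encoding the intermediate filament vimentin, had 22.3, 32.7, 30.7, 85.2 and 190 CPM. TUBB3, a beta-tubulin gene best known in neurons, had 4.10, 6.003, 11.2, 22.6 and 65.3 CPM. SEMA3D, a secreted semaphorin, went the other way, with 83.0, 66.0, 52.7, 36.8 and 24.0 CPM. Median depth in these ranges lay between 16988 and 17833 UMIs.

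The cells were epithelial by their markers. EPCAM, an epithelial surface adhesion gene, had 845 CPM in KRT17/ITGB6 cells and 804 CPM in the other epithelial-like cells, against 151 CPM in TNNT2-high cells. CDH1, encoding E-cadherin, had 144 and 135 CPM, and KRT8, a keratin of simple epithelia, 2903 and 2957 CPM. The amnion gene GABRP, a GABA receptor subunit, had 1508 and 1554 CPM. All 10 epithelial markers were above 20 CPM, and 1 of them, KRT7, passed a ratio of 1.5.

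Across genes, most levels were close and the differences ran mainly upward. Of 3371 genes with at least 50 CPM on the higher side, 107 (3.17%) were higher in KRT17/ITGB6 cells by 1.5-fold or more and 24 (0.712%) were lower by the same factor. A gene could reach this floor on 1 side alone, so both counts depend in part on the floor. The genes of the rule and mitochondrial and ribosomal protein genes were not counted. The median log2 ratio over the genes counted was -0.02.

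**Figure D2:**
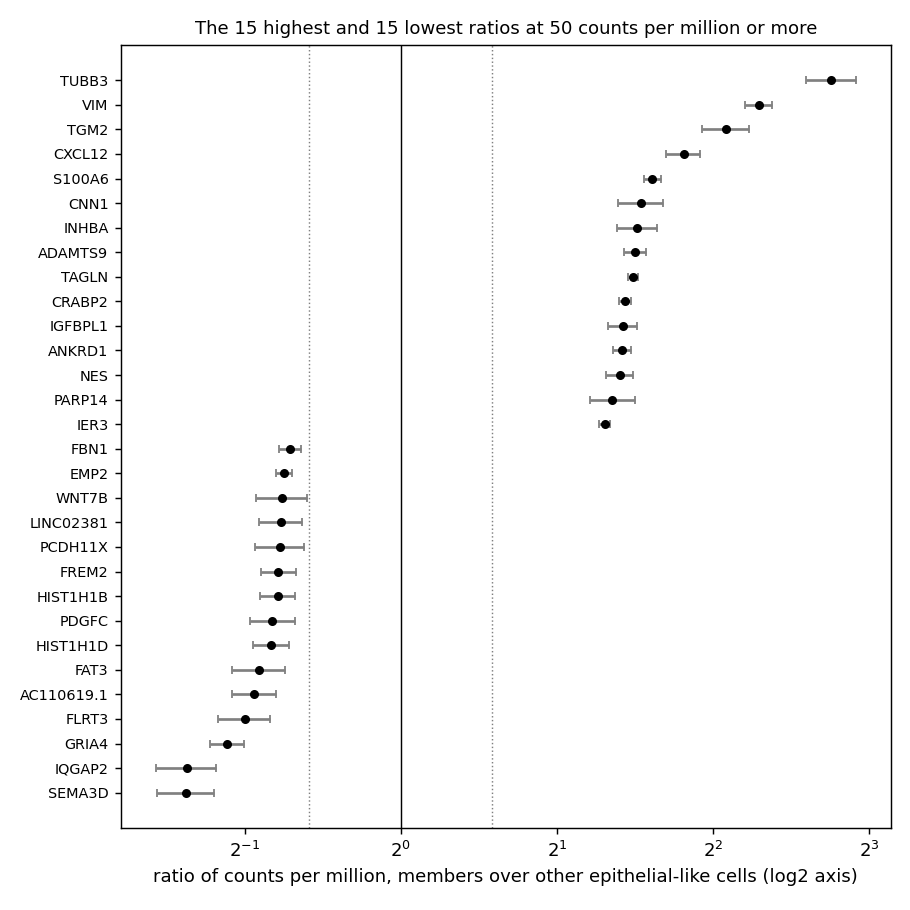
Ratio of CPM, KRT17/ITGB6 cells over other epithelial-like cells, for the 15 highest and 15 lowest ratios among genes at 50 CPM or more, on a log2 axis with exact 95% intervals for counting error. Dotted lines mark the 1.5-fold limits; ratios run from 6.73 for TUBB3 to 0.385 for SEMA3D.

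Among the 15 genes of highest ratio, the first was TUBB3 and the next VIM. Of the 2 epithelial sides, TUBB3, VIM, TGM2, CXCL12, CNN1, INHBA, IGFBPL1 and PARP14 reached the 50 CPM floor only in KRT17/ITGB6 cells. That is the side where they were higher, so their place in this ranking depends in part on the floor. TUBB3 had 65.3 CPM in KRT17/ITGB6 cells and 9.69 CPM in other epithelial-like cells (6.73-fold, 6.03 to 7.52), and VIM 190 and 38.9 CPM (4.90-fold, 4.62 to 5.20). NES, encoding the intermediate filament nestin, was 2.64-fold higher, TAGLN 2.80-fold at 928 and 331 CPM, and CNN1, encoding smooth muscle calponin, 2.90-fold. ANKRD1, a stretch-responsive gene and a known target of YAP and TEAD, was 2.67-fold higher (2.56 to 2.77). S100A6, a small calcium-binding protein gene, was 3.06-fold higher at 346 and 113 CPM.

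TGM2 had the third highest ratio and CXCL12 came after it. TGM2, which encodes a cross-linking transglutaminase, was 4.23-fold higher (3.81 to 4.69). CXCL12, a chemokine gene, was 3.51-fold higher, INHBA, which encodes a subunit of activin, 2.86-fold, and ADAMTS9, a matrix protease gene, 2.83-fold at 213 and 75.4 CPM. CRABP2, encoding a retinoic acid-binding protein, had 788 and 291 CPM (2.71-fold, 2.64 to 2.78). IGFBPL1 was 2.68-fold, PARP14 2.56-fold and the immediate early gene IER3 2.47-fold higher. Thinned to equal depth, a VIM UMI was found in 28.4% of KRT17/ITGB6 cells (24.8 to 32.2%) and 10.46% of other epithelial-like cells (9.44 to 11.5%), and in 49.8% and 23.9% unthinned. TNNT2-high cells, which also express VIM, had a thinned share of 33.7%.

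Several of these genes were also high in other cells of the culture. VIM had 2775 CPM in COL1A1-high cells and 179 CPM in TNNT2-high cells, and TAGLN 971 and 362 CPM. CXCL12, NES and CNN1 had 209, 425 and 261 CPM in TNNT2-high cells, more than the 102, 147 and 54.1 CPM of KRT17/ITGB6 cells. The 8 cardiomyocyte markers summed to 989 CPM in KRT17/ITGB6 cells, 1096 CPM in other epithelial-like cells and 37551 CPM in TNNT2-high cells. The 7 fibroblast markers summed to 4855 and 3910 CPM, against 18287 CPM in COL1A1-high cells. Of 4 fibroblast markers measured outside the rule, LUM, a matrix proteoglycan gene, was higher (1.80-fold, 1.77 to 1.84), while DCN, encoding decorin, had a ratio of 0.70 (388 and 555 CPM). The collagen genes COL1A2 and COL3A1, also measured, passed the limit in neither direction and made up most of the sum on both epithelial sides. LUM had 1099 CPM in KRT17/ITGB6 cells and 427 CPM in COL1A1-high cells, and the fibroblast genes PDGFRA and POSTN had 1.09 and 1.36 CPM in KRT17/ITGB6 cells. COL1A1, limited by the rule, had 229 and 96.3 CPM on the 2 epithelial sides. The part of fibroblast RNA in these ratios was not tested.

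**Figure D3:**
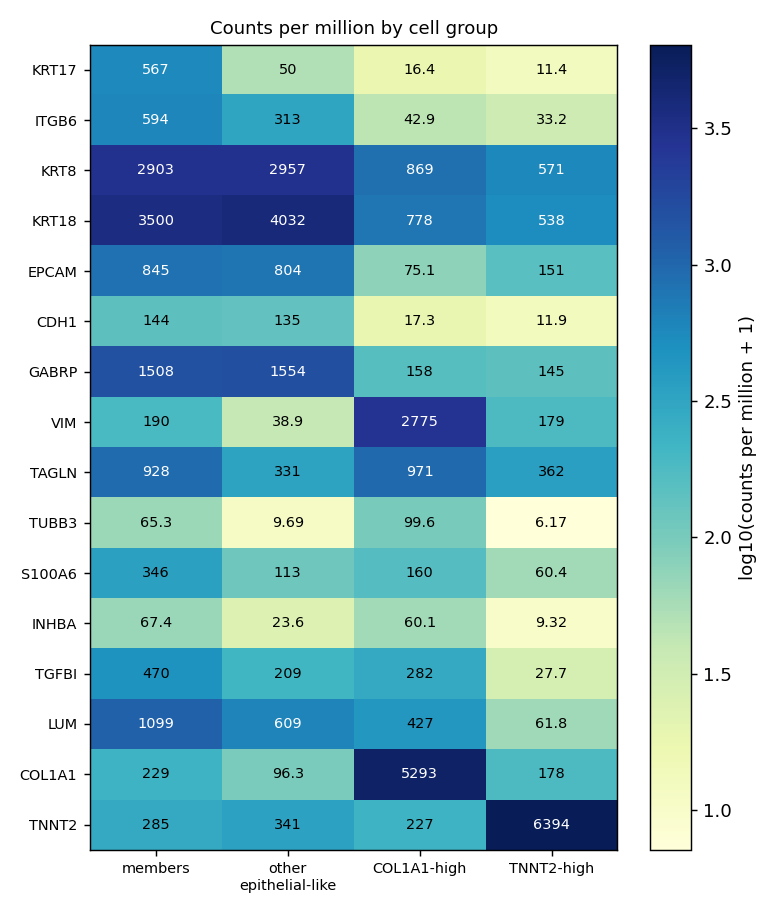
CPM of 16 genes in KRT17/ITGB6 cells (labelled members), other epithelial-like cells, COL1A1-high cells and TNNT2-high cells, with colour as log10(CPM + 1). EPCAM is at 845 and 804 CPM in the first 2 columns, while VIM is at 190 and 38.9 CPM there and 2775 CPM in COL1A1-high cells.

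Endothelial, blood, endoderm and pluripotency markers were low. In KRT17/ITGB6 cells the 6 endothelial markers summed to 11.2 CPM with 4 at 0, the 5 blood markers to 0.363 CPM with 4 at 0, the 5 endoderm markers to 0.453 CPM and the 5 pluripotency markers to 2.18 CPM. The 6 epicardial markers summed to 19.3 CPM, against 28.7 CPM in other epithelial-like cells. The 5 neural markers summed to 65.9 CPM, against 10.52 CPM in other epithelial-like cells, of which TUBB3 made 65.3 and 9.69 CPM. The other 4 were each under 1 CPM in KRT17/ITGB6 cells, and SOX2 was at 0.

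The lower genes formed a mixed set. SEMA3D had 24.0 CPM in KRT17/ITGB6 cells and 62.4 CPM in other epithelial-like cells (ratio 0.385, 0.339 to 0.436), and IQGAP2, encoding a scaffold protein, 21.7 and 56.0 CPM (0.387). GRIA4, a glutamate receptor subunit gene, had a ratio of 0.462 (68.2 and 148 CPM). FLRT3, a leucine-rich adhesion gene, followed at 0.5004, the noncoding AC110619.1 at 0.521, the cadherin gene FAT3 at 0.534, the growth factor gene PDGFC at 0.566 and the protocadherin gene PCDH11X at 0.585. FREM2, a basement membrane gene, had a ratio of 0.581, LINC02381 of 0.588, the WNT ligand gene WNT7B of 0.590, EMP2, an epithelial membrane protein gene, of 0.596 and FBN1, encoding fibrillin, of 0.612. EMP2 was abundant on both sides, at 333 and 558 CPM.

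The linker histone genes HIST1H1D (0.563) and HIST1H1B (0.579) were also lower. All 14 G2 and mitosis genes were measured, none past 1.5-fold, with a median log2 ratio of -0.31 against -0.03 over all 6681 genes at 20 CPM. That median was -0.85 when the score left out KRT17, -0.08 when it left out ITGB6, -0.15 when it left out RAMP1 or cells were chosen after thinning, -0.03 without cycling cells and 0.03 inside the cluster with the most KRT17/ITGB6 cells. After thinning, 3 or more UMIs of that list were found in 23.3% of KRT17/ITGB6 cells (19.9 to 26.8%) and 30.1% of other epithelial-like cells (28.5 to 31.6%). For 14 S phase genes the shares were 34.1% and 34.2%. Without cycling cells the log2 ratios of HIST1H1D and HIST1H1B were -0.22 and -0.09, and inside the cluster with the most KRT17/ITGB6 cells 0.11 and 0.30, so their direction was not stable.

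Integrins and the TGF-beta system were read as lists, with genes at 20 CPM or more on the higher side counted. At that floor 3.17% of 6681 genes were higher and 0.958% lower. In this and the other lists a gene could reach that floor on 1 side alone. Of 17 integrin genes outside the rule 5 were measured, 3 of them in both groups. ITGAV, ITGA3 and ITGA9 were higher, none was lower and the median log2 ratio was 0.61. At least 1 of ITGA3 and ITGA9 reached the floor only in KRT17/ITGB6 cells, where it was higher, so the median depends in part on the floor. The median was 0.27 when the score left out RAMP1 and 0.40 when the highest 10% were taken. ITGAV, the partner chain of ITGB6, had 194 and 124 CPM (1.57-fold, 1.497 to 1.649), and ITGB1, the partner of ITGA2, had 582 and 491 CPM, a ratio of 1.18. ITGB4 and ITGA6, which anchor epithelia to laminin, had 8.52 and 14.2 CPM in KRT17/ITGB6 cells, under the floor.

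Of 19 TGF-beta ligand, latency and target genes 13 were measured, 12 of them in both groups. Of the 13, 5 were higher and none lower, with a median log2 ratio of 0.46. PMEPA1, 1 of the 5, reached the floor only in KRT17/ITGB6 cells, where it was higher. TGFBI, a secreted matrix protein induced by TGF-beta, had 470 and 209 CPM (2.25-fold, 2.18 to 2.32), THBS1, encoding thrombospondin, 495 and 281 CPM (1.76-fold), and PMEPA1, a feedback target, 32.0 and 14.9 CPM (2.15-fold). The ligand gene TGFB2 was 1.56-fold higher, and INHBA is given above. The classical targets CCN2 and SMAD7 had ratios of 1.02 and 1.04. The list therefore held genes past the limit beside genes with nearly equal levels.

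Of 17 actin and migration genes all were measured, 16 of them in both groups, and FSCN1 reached the floor only in KRT17/ITGB6 cells. Of the 17, 4 were higher, none was lower and 13 did not pass the limit, with a median log2 ratio of 0.43. ACTN1, encoding an actin cross-linker, was 1.81-fold higher, ZYX, a focal adhesion gene, 1.66-fold, TPM4, a tropomyosin gene, 1.61-fold and FSCN1, encoding the bundling protein fascin, 3.09-fold at 28.3 and 9.17 CPM. Among 12 mesenchymal transition genes 7 were measured, VIM and TAGLN were higher, and the median was 0.40. CDH2, encoding N-cadherin, had 83.0 and 80.1 CPM, and the repressor genes ZEB1 and SNAI1 were near 1 CPM on both sides. SNAI2, another repressor gene of E-cadherin, had 18.6 and 5.66 CPM (3.28-fold, 2.75 to 3.91) and lay just under the floor. Of 12 YAP and TEAD targets 11 were measured, with ANKRD1 and AXL higher and a median of 0.10.

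Cell-to-cell junction genes were nearly equal. Of 10 desmosome genes 8 were measured and none passed the limit in either direction, with a median log2 ratio of 0.17, and DSP, encoding desmoplakin, had 981 and 730 CPM. Of 15 tight junction genes 11 were measured, with a median of 0.00, and only CLDN3 was lower (31.1 and 50.7 CPM). Among 9 hemidesmosome and laminin-332 genes 3 were measured and none was past the limit. The basement membrane list, with 12 of 15 measured, had a median of 0.03, with the collagen genes COL4A1 (2.02-fold, 1.92 to 2.13) and COL4A2 (1.53-fold) higher and FREM2 lower.

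Keratins other than KRT17 differed little in sum. The 6 simple epithelial keratins summed to 8280 CPM in KRT17/ITGB6 cells and 8442 CPM in other epithelial-like cells, with KRT7 1.67-fold higher (185 and 111 CPM) and KRT18 at a ratio of 0.868. Of 11 stratified keratins KRT10 had 178 and 179 CPM. KRT16, a keratin of wounded skin, had 249 and 113 UMIs, or 22.6 and 1.86 CPM (12.1-fold, 9.68 to 15.3). KRT16 and KRT17 are close paralogs with pseudogene copies, so how reads were assigned between them is uncertain. KRT16 had 13.3 CPM (8.22 to 20.3, from 21 UMIs) in the 98 KRT17/ITGB6 cells without a KRT17 UMI. It had 24.1 CPM (21.1 to 27.5) in the 509 cells with one. The assignment of reads was not tested. KRT5 and KRT13 were at 0 in KRT17/ITGB6 cells, KRT14 had 0.544 CPM, and TP63, the transcription factor of basal epithelium, was at 0.

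Transcription factors of the amnion and surface ectoderm were mostly even. Of 21 epithelial transcription factor genes 12 were measured, HAND1 and ISL1 were higher, MSX2 was lower and the median log2 ratio was -0.04. HAND1, a factor of extraembryonic mesoderm and heart, had 735 and 453 CPM (1.62-fold, 1.58 to 1.66). ISL1, known from cardiac progenitors and amnion, had 53.7 and 31.1 CPM (1.73-fold). TFAP2A and GRHL2, factors of surface epithelium, had ratios of 0.96 and 1.10. Of 14 amnion type genes 11 were measured, and ISL1, HAND1, KRT7 and IGFBP5 (1.93-fold) were higher, none was lower and the median was 0.38. Of 15 trophoblast genes 4 were measured, none was higher and XAGE2 was lower (78.2 and 122 CPM), and CGA and GCM1 were at 0.816 and 0 CPM in KRT17/ITGB6 cells.

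Proteases and immune genes added a few genes with large ratios at low levels. Of 20 protease and inhibitor genes 10 were measured, 8 of them in both groups, with MMP9, MMP2, MMP14 and PLAUR higher, none lower and a median log2 ratio of 0.37. MMP9, a gelatinase gene, had 46.1 and 3.60 CPM (12.8-fold, 10.89 to 15.04), MMP2 had 30.9 and 6.34 CPM (4.88-fold) and PLAUR, the urokinase receptor gene, 63.4 and 32.0 CPM. IL32, a cytokine gene, had 49.2 and 6.45 CPM (7.63-fold, 6.69 to 8.71), while the other 4 measured NF-kappaB targets were not past the limit. Of the 5 measured NF-kappaB targets 3 reached the floor in both groups. MMP9, MMP2 and IL32 reached it only in KRT17/ITGB6 cells, where they were higher. Few cells carried most of the MMP9 and IL32 UMIs: 45 of the 607 cells, described below, held 411 of 508 MMP9 UMIs and 367 of 543 IL32 UMIs. These 45 cells were chosen for 5 or more such UMIs. Part of this concentration, and of the low level in the rest, therefore comes with the choice. The remaining 562 cells had 9.66 CPM of MMP9 and 17.5 CPM of IL32. Among interferon-inducible genes, HLA-C, which encodes an antigen-presenting protein, had 56.0 and 26.2 CPM (2.14-fold, 1.95 to 2.35).

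The partners of RAMP1 and C15orf48 were also examined. CALCRL and CALCR, the receptors that RAMP1 can join, had 0.453 CPM each in KRT17/ITGB6 cells, from 5 UMIs each, and RAMP2 and RAMP3 had 1.54 and 0 CPM. Of that list only ADM, encoding the ligand adrenomedullin, was measured (24.8 and 19.6 CPM). NDUFA4, which the C15orf48 protein can replace, had 602 and 664 CPM, a ratio of 0.907 (0.883 to 0.930). All 11 genes of the cytochrome c oxidase list were measured and none passed the limit, with a median log2 ratio of -0.03.

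Signalling and stress lists held few genes past the limit. Among 19 WNT genes 6 were measured, SFRP1, a secreted WNT antagonist gene, was 2.25-fold higher, and WNT4 and WNT7B were lower. Of the BMP (7 measured), EGF and ERBB (5), aryl hydrocarbon receptor (5) and p53 (5) lists no gene passed the limit, with medians of -0.06, -0.14, -0.06 and -0.05. Of 14 measured immediate early genes IER3 was higher and DUSP1 lower, with a median of -0.19, and FOS and JUN had ratios of 0.79 and 0.82. Of 11 annexin and S100 genes S100A6 and S100A13 were higher (median 0.26). Of 8 measured hypoxia and glycolysis genes NDRG1 was higher (median -0.11), of 5 stress response genes DDIT3 was lower (median -0.09), and of 4 metallothionein genes MT2A was lower (median -0.50).

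**Figure D4:**
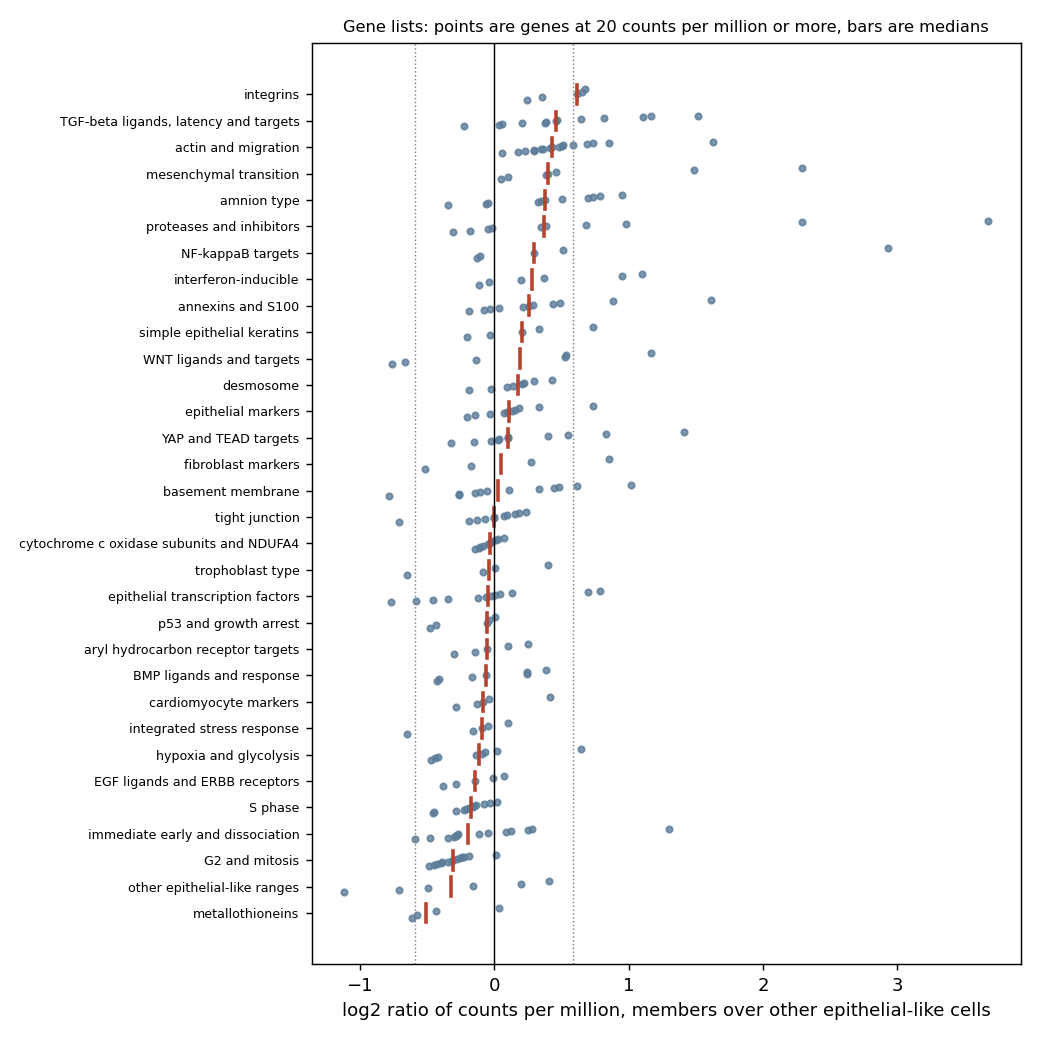
Log2 ratios of CPM, KRT17/ITGB6 cells over other epithelial-like cells, for each gene at 20 CPM or more in 32 gene lists with at least 4 measured genes (points), with the median of each list (red bars) and the 1.5-fold limits (dotted). Medians run from -0.50 for metallothioneins to 0.61 for integrins, and their order moves with the choice of cells. The integrin median rests on 5 genes, of which 3 were measured in both groups.

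The KRT17/ITGB6 cells were not uniform. KRT17 was the largest part of the score in 194 cells (32.0%), ITGB6 in 235 (38.7%), RAMP1 in 162 (26.7%), C15orf48 in 13 and ITGA2 in 3, and 98 cells (16.1%) held no KRT17 UMI. TAGLN had 1057, 910 and 724 CPM in the cells led by KRT17, ITGB6 and RAMP1, and VIM had 159, 157 and 168 CPM. Cells without a KRT17 UMI had VIM at 205 CPM (184 to 229) and cells with one at 188 CPM (179 to 197). The 13 cells led by C15orf48 stood apart, as did the 3 led by ITGA2. Those led by C15orf48 had 1433 CPM of VIM, 1323 of S100A6, 512 of IL32 and 442 of MMP9.

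This led to a small subset, chosen after its values were seen. With 5 or more UMIs of MMP9 and IL32 together, 45 KRT17/ITGB6 cells (7.41%) and 24 other epithelial-like cells (0.698%) were found, at median depths of 22376 and 20417.5 UMIs and with no doublet call. The 45 cells had 659 CPM of VIM, 1326 of S100A6 and 2176 of TAGLN, against 144, 250 and 806 CPM in the remaining 562. The 24 cells on the other side were also high in them, with 311, 813 and 2069 CPM. EPCAM was 848 CPM in the 45 cells and 845 CPM in the 562, and KRT8 was 3473 and 2847 CPM. Without this subset on either side, TUBB3 was 5.77-fold, VIM 3.95-fold, TAGLN 2.54-fold and S100A6 2.33-fold higher in KRT17/ITGB6 cells. The count of higher genes was then 99 of 3366. KRT7 then had a ratio of 1.49, just under the limit, and IL32 and MMP9, which define the subset, 4.65 and 4.28.

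Clusters were made from epithelial-like cells without the genes of the rule. KRT17/ITGB6 cells were found in each of 6 clusters, at 24.0% (21.5 to 26.5%) of cluster 2 and between 5.19% and 13.03% of the others, against 15% overall. Cluster 2, led by LMCD1, VIM and ANKRD1, held 276 of them (45.5%) and 1152 cells in all. Clusters 3, 4 and 5 were led by cell cycle and histone genes, and cluster 6, with 77 cells, had 46.8% doublet calls and 4 KRT17/ITGB6 cells. Compared inside cluster 2 alone, 107 of 3330 genes were higher and 28 lower, of which 82 and 14 were the same genes as over all clusters.

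**Figure D5:**
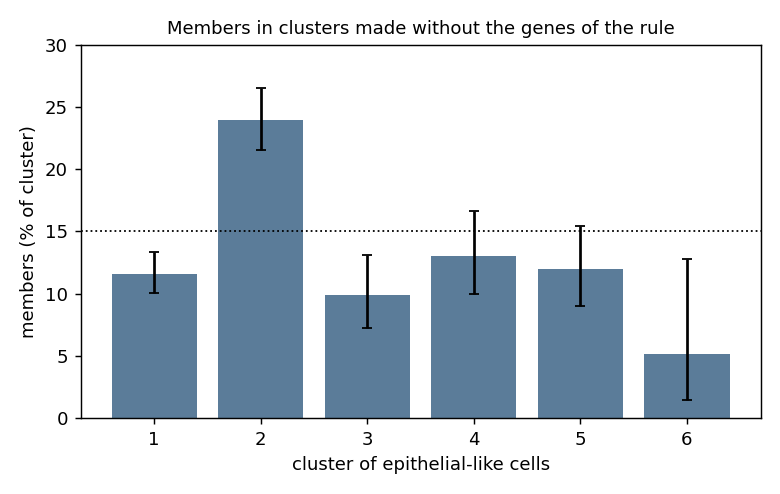
Share of each of 6 clusters of epithelial-like cells that were KRT17/ITGB6 cells, with exact 95% binomial intervals; clusters were made without the genes of the rule, and the dotted line marks 15%. Cluster 2 is at 24.0% and the other clusters are between 5.19% and 13.03%.

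The overlap with other ranges of epithelial-like cells was uneven. The highest 15% of cells by GRIA4 and CLDN3, also 607 cells, shared 30 cells with the KRT17/ITGB6 cells (4.94% of each, 3.36 to 6.98%). The highest 15% by NPY and NDNF shared 61 cells (10.0% of each), and that by PRSS12 and EDN1 shared 126 (20.8%, 17.6 to 24.2%). A range unrelated to the score would share about 15%, the share of KRT17/ITGB6 cells among all epithelial-like cells. Both GRIA4 and CLDN3 were lower in KRT17/ITGB6 cells, while EDN1, encoding endothelin, had 261 and 197 CPM.

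Across all 3978 thinned epithelial-like cells, the genes most like the score were LUM, TGFBI, FBLN1, CALD1 and CRABP2, with Spearman's rho of 0.318, 0.312, 0.309, 0.304 and 0.297 among 3213 genes, followed by IER3, CCDC80, PRSS23, ADAMTS9 and HAND1. The most negative values were -0.222 for EMP2 and -0.169 for GRIA4. These are weak correlations in sparse counts and are given as a description.

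CD34 protein, which the rule did not use, was close on both sides. The median number of tag UMIs was 41 in KRT17/ITGB6 cells (quartiles 30, 59), 38 in the other epithelial-like cells (29, 51.5) and 80 in TNNT2-high cells (43, 247). The ratio of the epithelial medians was 1.08, and the quartile ranges overlapped.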

How the data were processed

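The deposited matrix holds whole-number counts of UMIs for 36601 genes and 1 antibody tag. Cell Ranger 6.1.2 wrote them, per the file headers, and the build is GRCh38, per the submitters' processing notes; further filtering by the authors is not given in the sources used here. The members, gene lists and tests were chosen with earlier results of these data known. All barcodes held 239181462 RNA UMIs and 2773855 antibody-tag UMIs.

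Cells were chosen by the rule given above, in Python 3.11.15 with numpy 2.4.6 and scipy 1.17.1. Counts were summed over cells, scaled to CPM and compared as ratios, with exact Poisson intervals for levels, conditional binomial intervals for ratios and Clopper-Pearson intervals for shares. UMIs are counted near the 3' end of transcripts and carry no isoform information. A gene counted as higher at a ratio of 1.5 and as lower at its inverse. Named genes were the 15 highest and 15 lowest ratios at 50 CPM, plus members of 41 lists (465 genes) at 20 CPM. Shares used cells thinned to 5000 UMIs. Doublets were called with Scrublet in scanpy 1.11.5 on 12119 barcodes (1435 called, 11.8%) and kept, since the rule does not remove them. Clusters used 2000 variable genes, 30 components, 15 neighbours and leidenalg 0.10.2 at resolution 0.5. RefSeq coordinates and sequences are of GRCh38.p14, matched by symbol or synonym. The ratio and its interval were tested on simulated data drawn from Poisson counting, the model that the interval assumes. Spread between cells was therefore not tested. Some list genes are not reported here. The subset with MMP9 and IL32 and the comparison inside 1 cluster were added after the data were seen.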

Additional observations from a re-analysis of the deposited data

How the results depend on the processing

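No paired analysis was possible because there is 1 culture and no replicate. Of 18 alternatives, the count of higher genes (107 of 3371 measured) lay between 83 and 125 except at a floor of 10 CPM. There 9060 genes were measured, of which 298 were higher and 132 lower. The other alternatives measured between 3330 and 3395 genes, so their counts cannot be set directly beside those at the lower floor. At the floor of 50 CPM the count of lower genes (24) was 15 when cells were chosen after thinning and 58 when the score left out KRT17. It otherwise lay between 16 and 30. With doublets removed the counts were 110 and 26. The integrin median lay between 0.27 and 0.65, the TGF-beta median between 0.34 and 0.51, and the G2 and mitosis median between -0.85 and 0.03 (log2). The ratio of antibody-tag medians lay between 1.03 and 1.11. All of the 15 named higher genes and 9 of the 15 lower ones stayed past 1.5-fold in the 17 alternatives that gave them a value. The sign changed for 2 named genes in 1 alternative: inside the cluster with the most KRT17/ITGB6 cells, HIST1H1D had a log2 ratio of 0.11 and HIST1H1B of 0.30, and the cause was not tested. The lower genes that fell short of the limit in at least 1 alternative were FREM2, PCDH11X, WNT7B, FBN1, HIST1H1D and HIST1H1B. At this depth the levels of ITGA2, CALCRL and other scarce genes rest on few UMIs per cell, and variation between cultures cannot be estimated.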
